A study of Mus musculus with 6 samples.

Results

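Solute carriers are membrane proteins that move sugars, amino acids, organic acids, nucleosides, metal ions and other small molecules across the plasma membrane and the membranes of organelles. Here they were taken as every gene of the expression table whose whole name is Slc, a family number, the letter a and a member number. By this rule 187 of the 12826 genes in the table were solute carriers, from 44 families. They comprised 5 glucose carriers (Slc2a), 23 amino acid carriers (Slc1a, Slc3a, Slc7a and Slc38a), 8 monocarboxylate carriers (Slc16a), 34 mitochondrial carriers (Slc25a), 21 metal carriers (Slc30a and Slc39a) and 96 members of 35 other families. A further 24 genes with Slc in their names, such as nucleotide sugar carriers of the Slc35b and Slc35c groups, did not match the rule.

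The RNA was that of ETX-embryos, which are structures grown in culture from mouse embryonic stem cells, trophoblast stem cells and extraembryonic endoderm (XEN) cells to resemble an embryo. All 6 libraries came from ETX-embryos carrying a GFP reporter of T (Brachyury), a gene of the primitive streak, from which the trophoblast stem cell compartment had been removed, and no treatment was given. The embryonic stem cell compartment of each of 3 individual ETX-embryos (A, B and C) was cut lengthwise, and its GFP-negative piece was labelled anterior and its GFP-positive piece posterior. Each piece gave 1 low-input Smart-seq2 library, so there were 3 anterior and 3 posterior libraries and both pieces of an embryo share its letter. The pieces were not sorted by cell type, and they can hold endoderm as well as embryonic cells. A piece is bulk RNA, in which fewer cells of a type and less RNA per cell cannot be told apart.

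Glucose enters cells through facilitative carriers of the Slc2a family, and lactate and pyruvate leave or enter with protons through Slc16a carriers, which need a chaperone protein at the cell surface. Amino acids arrive through exchangers, such as the Slc7a proteins that pair with the heavy chain Slc3a2, and through sodium-coupled carriers such as the Slc38a proteins. Slc25a proteins link the cytosol to the mitochondrial matrix and carry ADP, ATP, phosphate and metabolites across the inner membrane. Slc39a (ZIP) proteins bring zinc and related metals into the cytosol, and Slc30a (ZnT) proteins move zinc out of it. Post-implantation epiblast cells rely strongly on glycolysis, and glucose and lactate carriers are abundant in them.

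Values are on the log2(FPKM + 1) scale. FPKM counts fragments for each kilobase of a transcript, scaled to the library's mapped fragments, so levels can be compared between genes. They are given for A, B and C in that order, first anterior and then posterior, and each library is named by its label. T itself did not follow the labels throughout. It was listed at 0, 0 and 42.5 FPKM in anterior A, B and C, against 5.03, 15.6 and 0 FPKM in their posterior counterparts. In ETX-embryo C, T was thus above 0 in the library labelled anterior and at 0 in that labelled posterior, so any direction given for C follows the label alone. Over the 11 streak markers, however, 2, 3 and 4 were above 0 in the anterior libraries and 11, 11 and 10 in the posterior ones.

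The libraries differed in depth and in detected genes. With anterior A set to 1, its pair with each other library gave the other anterior libraries a relative depth of 1.41 and 1.43. The posterior ones were at 2.20, 2.82 and 1.56, and the absolute depth is unknown. Read directly against anterior B, posterior A and posterior B had log2 depth ratios of -0.36 and 0.0023. These lay a doubling below the ratios chained through anterior A. The direct ratio of posterior C to posterior A was a doubling above the chained one, at 0.51. The remaining pairs without anterior A matched the chained ratios, and pairs with anterior A match by definition. Whether posterior A was deeper than anterior B or posterior C, and posterior B than anterior B, was therefore not settled. Of the 187 solute carriers, 148, 161 and 112 were listed above 0 in the anterior libraries and 177, 179 and 145 in the posterior ones. Anterior A and anterior C stood furthest apart from the rest. Across the 154 solute carriers with a mean of at least 1 FPKM, the Spearman correlation of anterior A with the other libraries was 0.30 to 0.49. The other pairs had 0.37 to 0.75, with 0.37 between anterior C and posterior C. Anterior C also had 40.1% of the 187 solute carriers at 0, against 20.9% in anterior A. Of 18 visceral endoderm markers, 5 were above 0 in the library labelled anterior C, where Ttr, Rbp4, Apoa1 and Hnf4a were at 0. In the other libraries 12 to 18 were above 0. Their summed FPKM ranged from 136.2 to 1772 in anterior and from 940 to 3812 in posterior libraries. The posterior sums rested largely on 1 gene, Spink3, at 9.56, 11.68 and 9.31. Of the 16 markers tested, 5, 5 and 10 were higher in the posterior piece of A, B and C. In the anterior piece 10, 11 and 1 were higher. The 12 parietal endoderm and XEN markers summed to 374.7 to 2100 FPKM in anterior and 424.2 to 900.9 FPKM in posterior libraries. For 4, 2 and 10 of them the posterior piece of A, B and C was higher, and for 8, 10 and 1 the anterior piece. The 8 trophoblast markers summed to 34.5 to 120.1 and 78.9 to 121.2 FPKM, with 4, 3 and 5 of them above 0 in anterior and 8, 8 and 7 in posterior libraries. The list did not move as 1: the posterior piece was higher in each embryo for 3 of the 8 (Tfap2c, Esrrb and Eomes). The anterior piece was higher in each for 2 (Gata3 and Hand1). Eomes is also 1 of the 11 streak markers. The 10 epiblast markers summed to 34.7 to 303.8 FPKM in anterior and 220.6 to 421.7 FPKM in posterior libraries. On average over the embryos all 10 were higher in posterior, against 64.9% of all genes. In A, B and C the posterior piece was higher for 10, 8 and 7 of them. The part of depth and of these cell types in the differences below was not tested.

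A few carriers made up most of the solute carrier signal. Slc39a1 (mean 10.29 ± 0.96), Slc25a5 (9.36 ± 1.33), Slc2a1 (8.50 ± 0.53) and Slc2a3 (8.39 ± 0.29; all SD over 6 libraries) had the highest mean levels. Slc39a1 is a plasma membrane zinc importer, Slc25a5 an ADP/ATP carrier of mitochondria, and Slc2a1 (GLUT1) and Slc2a3 (GLUT3) are glucose carriers. These 4 genes held 53% to 64.1% of the summed FPKM of all solute carriers in each library. Next in order came Slc25a4, Slc16a1, Slc25a3, Slc3a2, Slc25a36, Slc38a2, Slc25a39 and Slc6a6. The 12 genes named here were also the only members with at least 10 FPKM in all 6 libraries. At the other end, 33 of the 187 had a mean below 1 FPKM and were not tested, and 89 (47.6%) were above 0 in all 6 libraries, against 57.9% of all genes in the table.

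**Figure D1:**
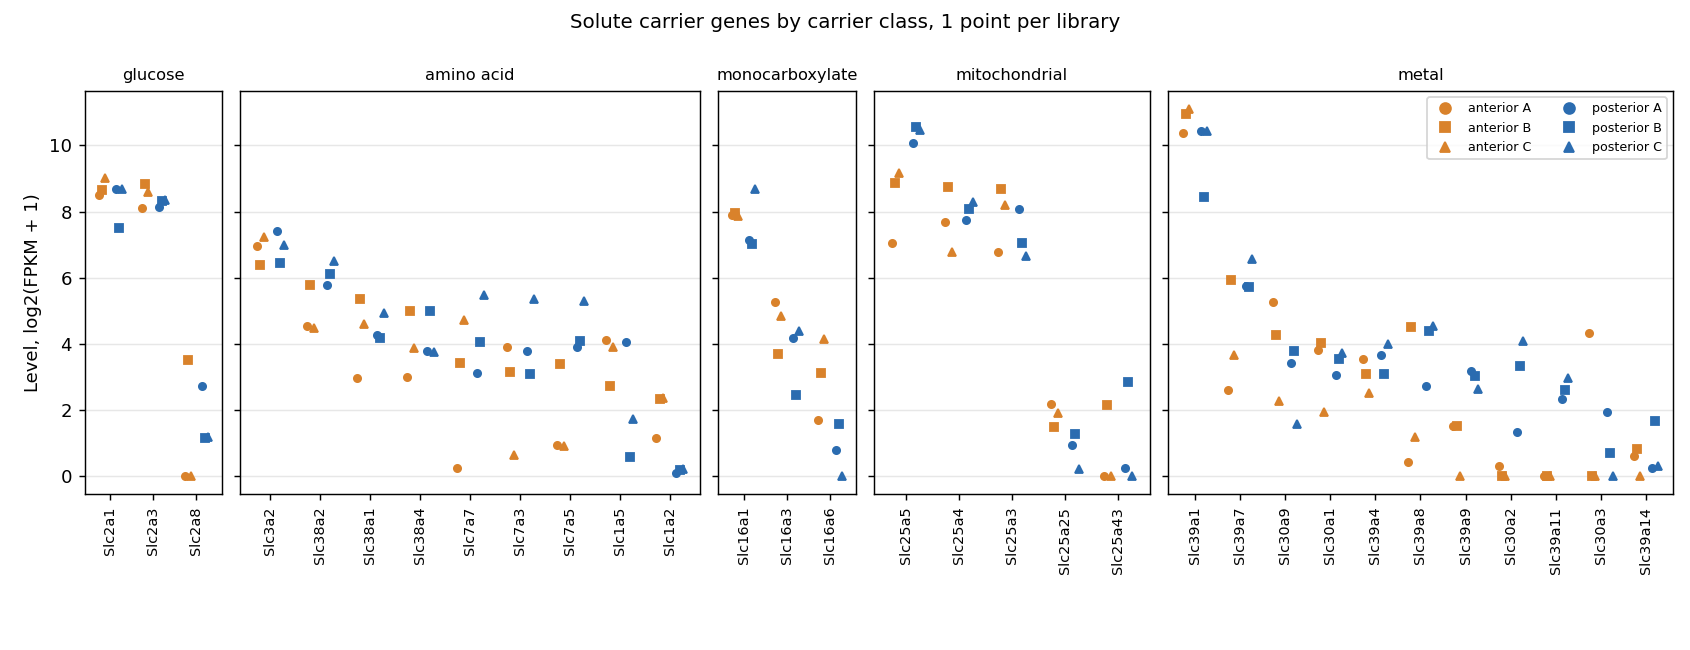
Levels of the solute carriers named by rule from the 5 main classes, with Slc2a8 (horizontal axis), in each of the 6 libraries (1 point each, log2(FPKM + 1), vertical axis), orange anterior and blue posterior, with the symbol giving the ETX-embryo. Slc39a1, Slc25a5, Slc2a1 and Slc2a3 stand highest, and the 3 posterior points of Slc25a5 lie above its 3 anterior points.

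Between the domains, no solute carrier passed an adjusted p of 0.05. Posterior minus anterior differences were fitted with limma over 10914 genes, 154 of them solute carriers, with the embryo as a block and Benjamini-Hochberg adjustment. The call rate over all genes fitted was 0%, and the smallest adjusted p was 0.211 over all genes and 0.523 among the solute carriers. The median SE of a solute carrier difference was 0.962, so a difference well over 2-fold could go uncalled here. At an unadjusted p under 0.05, 7 of the 154 (4.55%) were higher in the posterior libraries, against 7.24% of all genes fitted, and 0 were higher in the anterior libraries, against 0.788% of all genes. Those 7 genes were Slc25a5, Slc39a11, Slc30a2, Slc27a3, Slc7a5, Slc29a1 and Slc11a2. Leaving out ETX-embryo A, B or C gave 3, 3 and 10 solute carriers higher in posterior, which were 1.95%, 1.95% and 6.49% of those tested, against 3.19%, 3.71% and 8.23% of all genes. Those higher in anterior then numbered 2, 1 and 3, or 1.3%, 0.649% and 1.95%, against 0.907%, 0.33% and 1.28% of all genes.

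Libraries were also compared by whether the domains were separated. In 18 solute carriers (11.7%) the 3 posterior libraries all lay above the 3 anterior ones, against 12.3% of all genes. In 8 (5.19%) the 3 anterior libraries all lay above the 3 posterior ones, against 3.77%. The posterior piece was higher in each embryo for 23 solute carriers (14.9%; 21.5% of all genes), and the anterior piece was higher in each for 13 (8.44%; 8.25% of all genes). On average over the embryos, 91 of 154 (59.1%) were higher in posterior, against 64.9% of all genes.

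The median solute carrier difference was 0.24 (0.74 in A, -0.16 in B and 0.13 in C), beside 0.43 over all genes fitted (0.91, 0.02 and 0.17). Since the median of all genes was itself above 0, differences are best read against it. After quantile normalization or after subtracting each library's median, the median of all genes was -0.06 and that of the solute carriers -0.28 and -0.25. Under quantile normalization 55 of the 154 were higher in posterior and 99 in anterior, against 5233 and 5681 of all genes fitted. A small positive or negative difference thus has no fixed sign across scalings.

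**Figure D2:**
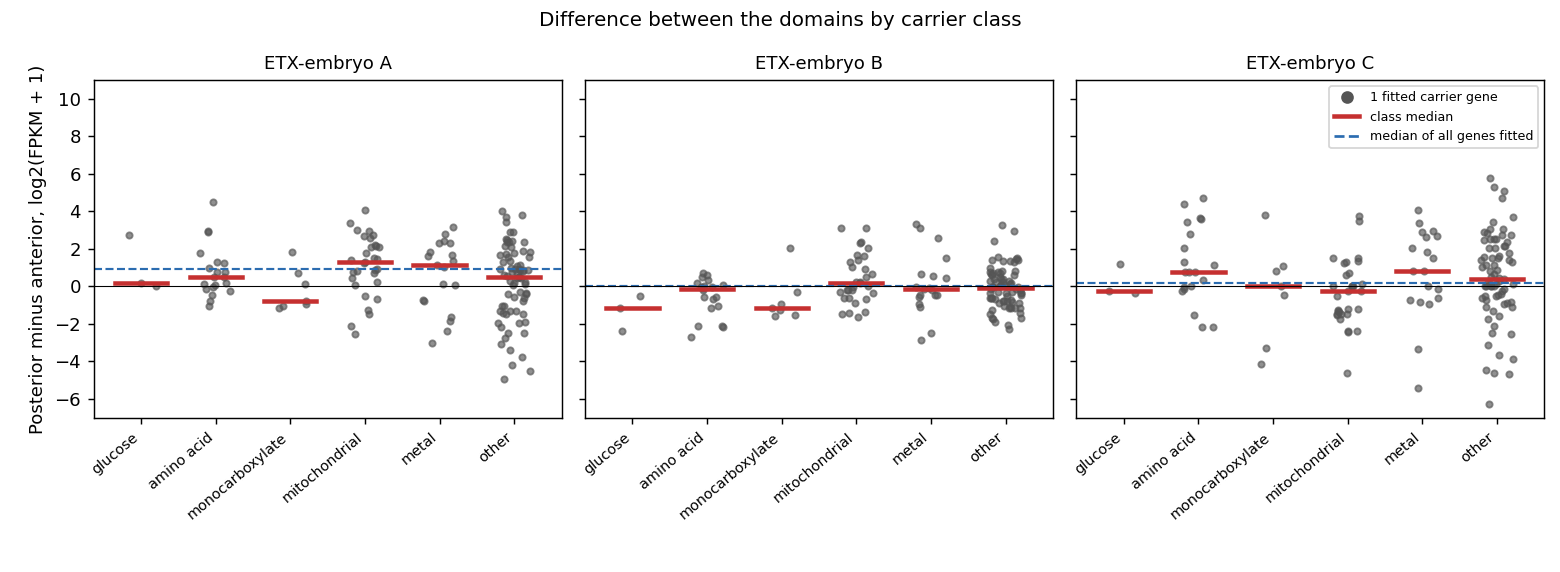
Posterior minus anterior difference in log2(FPKM + 1) (vertical axis) of each of the 154 solute carriers tested (points), by carrier class (horizontal axis) and ETX-embryo (panels), with the class median (red line) and the median of all genes fitted (dashed line). Class medians lie on both sides of 0 in ETX-embryo B, and the monocarboxylate median is below 0 in A and B.

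Among the glucose carriers, Slc2a1 and Slc2a3 gave 98.75% to 100% of the class's FPKM in every library, and neither differed between the domains beyond its error. Levels of Slc2a1 were 8.49, 8.66 and 9.02 in anterior and 8.69, 7.49 and 8.67 in posterior libraries. Posterior B was the lowest and the other 5 lay between 8.49 and 9.02, with a posterior minus anterior difference of -0.44 ± 0.59 (SE; limma, adjusted p = 0.847). Slc2a3, the high-affinity neuronal and embryonic glucose carrier, was at 8.09, 8.84 and 8.60 in anterior and 8.13, 8.33 and 8.36 in posterior libraries. Its groups overlapped and its difference was -0.24 ± 0.57 (limma, adjusted p = 0.919).

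Slc2a1 was above Slc2a3 in 4 of 6 libraries, so their order was not resolved, whereas Slc2a3 was above the next member, the intracellular carrier Slc2a8, in 6 of 6. Slc2a8 was at 0, 3.51 and 0 in anterior and 2.72, 1.15 and 1.18 in posterior libraries. Slc2a4, the insulin-responsive carrier of muscle and fat, reached at most 1.12, and Slc2a2, the low-affinity carrier of liver and pancreas, at most 1.74, and both were below the mean of 1 FPKM. The class median was -0.24 over its 3 tested members, and 0.26 when no filter on low values added the remaining 2.

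Slc16a1 (MCT1), which carries lactate, pyruvate and ketone bodies, was the leading monocarboxylate carrier. Its levels were 7.90, 7.96 and 7.86 in anterior and 7.13, 7.01 and 8.68 in posterior libraries. The 3 anterior libraries were nearly equal, posterior A and B lay below them and the library labelled posterior C above them. The difference was -0.30 ± 0.64 (limma, adjusted p = 0.911), and 0.03 without ETX-embryo B. Slc16a3 (MCT4), a lactate exporter of glycolytic cells and a hypoxia-induced gene, was at 5.25, 3.69 and 4.84 in anterior and 4.18, 2.45 and 4.38 in posterior libraries. It was higher in the anterior piece of each embryo but the groups overlapped, and the difference was -0.93 ± 0.82 (limma, adjusted p = 0.755).

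Slc16a6 (MCT7), a carrier of ketone bodies, was at 1.69, 3.10 and 4.13 in anterior and 0.77, 1.57 and 0 in posterior libraries. All 3 anterior libraries lay above all 3 posterior ones, and the difference of -2.20 ± 1.04 did not pass (limma, unadjusted p = 0.063, adjusted p = 0.62). Over the 7 tested members of the class, 4 were higher in anterior and 3 in posterior, with a median of -0.30 (-0.77 in A, -1.14 in B and 0.00 in C). It was below 0 under every alternative run, from -0.86 to -0.23. Basigin (Bsg) and embigin (Emb), the chaperones of Slc16a1 and Slc16a3, differed by -0.20 ± 0.64 and 0.13 ± 0.60 (limma, adjusted p = 0.946 and 0.964).

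The promoter stretches of the leading glucose and lactate carriers and of Slc25a5, the solute carrier with the smallest p, are shown because the core of the hypoxia response element can be searched in them. The letters searched were ACGTG and GCGTG on both strands (CACGT and CACGC on the strand shown), in the 250 bases before the RefSeq start site, and capitals mark the matches. Each sequence is from RefSeq, GRCm38.p6, plus strand, 5′ to 3′, and ends where an annotated exon begins or at the start site. For Slc16a3 the window lies inside the annotated gene, which begins at chr11:120948480, so the start site used is a later one. The windows are chr4:119108495-119108710 for Slc2a1, chr11:120948817-120949052 for Slc16a3, chr3:104638414-104638663 for Slc16a1 and chrX:36795347-36795596 for Slc25a5.
Slc2a1: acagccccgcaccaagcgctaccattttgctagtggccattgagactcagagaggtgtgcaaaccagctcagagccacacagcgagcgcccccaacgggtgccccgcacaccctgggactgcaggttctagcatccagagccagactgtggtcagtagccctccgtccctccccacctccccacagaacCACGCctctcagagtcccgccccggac
Slc16a3: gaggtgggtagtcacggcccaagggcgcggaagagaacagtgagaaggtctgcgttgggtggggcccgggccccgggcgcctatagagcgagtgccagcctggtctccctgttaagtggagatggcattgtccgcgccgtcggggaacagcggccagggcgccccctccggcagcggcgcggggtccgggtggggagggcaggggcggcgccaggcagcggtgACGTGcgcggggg
Slc16a1: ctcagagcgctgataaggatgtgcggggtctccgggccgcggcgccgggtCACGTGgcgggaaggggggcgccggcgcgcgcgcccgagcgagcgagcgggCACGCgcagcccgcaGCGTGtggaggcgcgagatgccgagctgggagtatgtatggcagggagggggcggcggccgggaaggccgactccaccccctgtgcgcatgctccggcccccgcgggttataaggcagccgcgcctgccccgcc
Slc25a5: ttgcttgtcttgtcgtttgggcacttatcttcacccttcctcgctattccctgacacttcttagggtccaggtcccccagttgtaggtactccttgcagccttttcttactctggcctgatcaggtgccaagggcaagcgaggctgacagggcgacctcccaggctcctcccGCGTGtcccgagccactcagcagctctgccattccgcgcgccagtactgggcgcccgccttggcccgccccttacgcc
In these stretches the match began 61 bases before the start site in Slc2a1, 27 in Slc16a3 and 78 in Slc25a5. Slc16a1 had 4 matches, at 200, 199, 149 and 134 bases, of which the first 2 overlap on opposite strands in the palindrome CACGTG, which is also an E-box. A match was present in 51.3% of the 189 windows of 139 solute carriers and in 38.6% of the 32851 windows of all genes. A second match of Slc2a1 and of Slc16a3 lies beyond the stretch shown. These letters are short and common, and a match is not a binding site. No window was found for Slc2a3, Slc7a5 or Slc1a5.

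Genes of glycolysis and of the hypoxia response were read beside these carriers. Of 14 glycolytic enzymes, 12 were higher in anterior and 2 in posterior, with a median of -0.20, and 0 had an unadjusted p under 0.05 (the median was 0.19 without ETX-embryo B, and 0.04 with anterior C alone left out and no block). Of 12 hypoxia-induced genes, 12 were higher in anterior, with a median of -1.53 that stayed between -2.02 and -1.42 under the alternatives. Among all 10914 genes fitted, 3836 were higher in anterior. In this list 5 had an unadjusted p under 0.05, against 0.788% of all genes in that direction, but the smallest adjusted p was 0.52 (limma). Adm, which encodes the vasodilator peptide adrenomedullin, was at 7.13, 4.70 and 6.63 in anterior and 3.67, 2.61 and 0.45 in posterior libraries. Vegfa, the angiogenic growth factor, was at 5.12, 5.31 and 5.26 in anterior and 2.62, 3.23 and 2.54 in posterior libraries. For both the groups did not overlap. The anterior libraries all lay above the posterior ones in 6 of the 12 hypoxia-induced genes, against 3.77% of all genes. In the others the groups overlapped, as they did for Slc2a1, Slc2a3, Slc16a1 and Slc16a3.

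Slc3a2 (4F2hc), the heavy chain that brings Slc7a light chains to the cell surface, was the most abundant amino acid carrier gene. It was at 6.95, 6.38 and 7.24 in anterior and 7.42, 6.43 and 6.99 in posterior libraries, a difference of 0.09 ± 0.63 (limma, adjusted p = 0.978). Its light chain Slc7a5 (LAT1), which imports leucine and other large neutral amino acids, was at 0.94, 3.37 and 0.90 in anterior and 3.89, 4.09 and 5.30 in posterior libraries. The posterior libraries all lay above the anterior ones, anterior B being close to posterior A. The difference of 2.69 ± 1.04 had an unadjusted p of 0.029 and did not pass (limma, adjusted p = 0.603, 0.491 to 0.903 over the alternatives). The annotation places Slc7a5 at chr8:121881150-121907694 on the minus strand, overlapped by the plus-strand gene model Gm20388, and reads of the pair cannot be told apart where the counting used no strand. The same holds for other members described here that overlap a protein-coding gene of the opposite strand, among them Slc7a7 (Oxa1l), Slc11a2 (Gm5475), Slc16a6 (Amz2 and Arsg), Slc39a9 (Erh), Slc31a1 (Cdc26), Slc25a25 (Naif1), Slc25a46 (B930094E09Rik), Slc30a3 (Dnajc5g) and Slc5a6 (Atraid).

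Slc7a6, another Slc3a2 partner, was at 3.20, 5.52 and 2.64 in anterior and 3.68, 5.33 and 3.92 in posterior libraries, a difference of 0.52 ± 0.85 (limma, adjusted p = 0.87). Slc7a7, a further light chain that exports cationic amino acids, was at 0.23, 3.43 and 4.72 in anterior and 3.12, 4.05 and 5.47 in posterior libraries. It followed the embryo in both domains, lowest in A and highest in C. Slc7a3, a carrier of cationic amino acids such as arginine, was at 3.90, 3.13 and 0.63 in anterior and 3.78, 3.07 and 5.35 in posterior libraries. Its difference of 1.51 ± 1.16 rested on ETX-embryo C and was -0.09 without it. Slc7a14 was the steadiest of the family, between 3.30 and 4.11 in all 6 libraries.

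The sodium-coupled neutral carrier Slc38a2 (SNAT2), which is induced when amino acids are short, was at 4.52, 5.76 and 4.46 in anterior and 5.77, 6.12 and 6.50 in posterior libraries. The groups did not overlap, but anterior B and posterior A were practically equal, and the difference was 1.21 ± 0.74 (limma, adjusted p = 0.666). Slc38a1, a glutamine carrier, was at 2.96, 5.34 and 4.60 in anterior and 4.27, 4.18 and 4.94 in posterior libraries. Slc38a4, an imprinted gene of placenta and liver, was at 3.00, 4.997 and 3.87 in anterior and 3.78, 4.98 and 3.74 in posterior libraries. Both groups overlapped, and both small differences (0.16 and 0.21) turned negative after quantile normalization and after median subtraction. Slc38a3, a glutamine carrier, was listed at 0 in anterior A, B and C, while posterior libraries had 2.47, 1.05 and 0.37, and its mean was below the tested range.

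In the Slc1a family, the direction was the other way for some members. Slc1a5 (ASCT2), a glutamine and neutral amino acid exchanger, was at 4.10, 2.71 and 3.89 in anterior and 4.06, 0.56 and 1.72 in posterior libraries. The A pieces were equal and the B and C pieces were apart, with a difference of -1.46 ± 0.99 (limma, adjusted p = 0.686). Slc1a2, the main glutamate carrier of brain glia, was at 1.13, 2.32 and 2.35 in anterior and 0.08, 0.18 and 0.19 in posterior libraries. Its groups did not overlap, and the difference of -1.78 ± 0.85 did not pass (limma, unadjusted p = 0.065, adjusted p = 0.624).

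Of the 20 amino acid carriers tested, 15 were higher in posterior (75%, against 64.9% of all genes) and 5 in anterior. Their median of 0.39 lies beside the 0.43 of all genes and was -0.21 after quantile normalization and -0.09 after median subtraction. It was 0.43, 0.85 and 0.05 without ETX-embryo A, B and C, and 0.22 with no block and either anterior A or anterior C left out. By family, the median was 0.70 for Slc38a (6 of 7 higher in posterior), 0.52 for Slc7a (5 of 7) and 0.27 for Slc1a (3 of 5), and the quantile-normalized medians were -0.20, -0.02 and -0.30. Genes of the amino acid response, which respond to amino acid shortage through the factor ATF4, had a median of 0.84. Of the 14 tested, 12 were higher in posterior (85.7%, against 64.9% of all genes). After quantile normalization 9 were, against 5233 of all 10914 genes fitted. That median was 2.49 in A, -0.20 in B and 0.25 in C, and 0.31 with anterior A alone left out and no block. The serine synthesis gene Phgdh was at 0.46, 3.75 and 4.25 in anterior and 6.07, 4.87 and 6.42 in posterior libraries (2.97 ± 1.01), and asparagine synthetase Asns at 3.52, 5.23 and 5.02 against 5.96, 6.49 and 6.44 (1.71 ± 0.73). Psat1 of the serine pathway also had an unadjusted p under 0.05 in that direction. Ddit3, a stress-induced transcription factor in the same list, was at 5.47, 5.55 and 5.83 in anterior and 1.83, 2.64 and 5.33 in posterior libraries (-2.35 ± 0.90). These 4 genes had adjusted p-values from 0.566 to 0.614 (limma).

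The mitochondrial carrier Slc25a5 (ANT2), which exchanges cytosolic ADP for ATP made in the matrix, had the smallest p of all solute carriers tested. Its levels were 7.04, 8.87 and 9.16 in anterior and 10.07, 10.56 and 10.47 in posterior libraries, that is 130.7, 465.5 and 569.2 FPKM against 1074, 1506 and 1415 FPKM. The posterior piece was higher in each embryo, by 3.03 in A, 1.69 in B and 1.31 in C, and the groups did not overlap. The difference of 2.01 ± 0.59 is 4.03-fold on the log2(FPKM + 1) scale, with an unadjusted p of 0.0071 and an adjusted p of 0.523 (limma), so it did not pass. Over the alternatives it ranged from 1.35 to 2.41, with adjusted p-values of 0.404 to 0.903. Slc25a5 lies at chrX:36795651-36798807 on the plus strand. The annotation holds 1 pseudogene named after it, so reads could be shared with that copy.

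Its paralogue Slc25a4 (ANT1), the ADP/ATP carrier of heart and muscle, was at 7.68, 8.74 and 6.78 in anterior and 7.75, 8.07 and 8.30 in posterior libraries. These groups overlapped, with a difference of 0.31 ± 0.65 (limma, adjusted p = 0.909). The phosphate carrier Slc25a3, which supplies phosphate for ATP synthesis, was at 6.79, 8.68 and 8.19 in anterior and 8.06, 7.05 and 6.65 in posterior libraries. It was higher in posterior in A and higher in anterior in B and C, a difference of -0.63 ± 0.74 (limma, adjusted p = 0.821). The 3 genes held 65.9% to 83.1% of the mitochondrial carrier FPKM in each library.

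Among other mitochondrial carriers, the pyrimidine nucleotide carrier Slc25a36 was at 4.57, 4.85 and 6.77 in anterior and 6.65, 6.88 and 6.50 in posterior libraries, with the library labelled anterior C at the posterior level. Slc25a39, a glutathione carrier, was between 4.91 and 5.54 in anterior and between 4.92 and 6.43 in posterior libraries. Slc25a25, a calcium-regulated ATP-Mg and phosphate carrier, was at 2.17, 1.48 and 1.91 in anterior and 0.92, 1.26 and 0.19 in posterior libraries. Its groups did not overlap in the anterior direction, with a difference of -1.06 ± 0.90 (limma, adjusted p = 0.745). Slc25a10 (dicarboxylates), Slc25a32 (folate and FAD) and Slc25a46 (an outer membrane protein of mitochondrial fission) were separated in the posterior direction, with differences of 1.74, 1.71 and 0.90 and adjusted p-values of 0.659, 0.646 and 0.774 (limma).

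Of the 31 tested Slc25a genes, 21 were higher in posterior (67.7%, against 64.9% of all genes) and 10 in anterior. Their median was 0.40 (1.27 in A, 0.15 in B and -0.26 in C), -0.05 without ETX-embryo A, -0.06 with anterior A alone left out and no block, and -0.08 after median subtraction. Summed FPKM of the class was 673, 1563 and 1440 in anterior and 1913, 2303 and 2201 in posterior libraries, and without Slc25a5 it was 542.2, 1098 and 871.1 against 839, 797.4 and 786. The class sum was therefore separated between the domains and the sum without Slc25a5 was not.

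**Figure D3:**
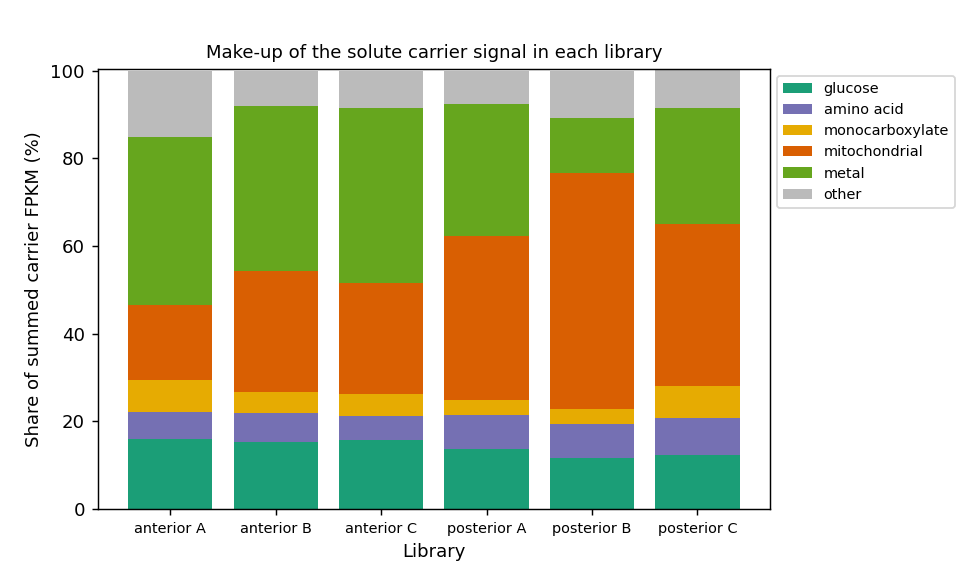
Share of the summed FPKM of all 187 solute carriers (percent, vertical axis) held by each carrier class (colours) in each library (bars). Mitochondrial carriers hold 17% to 27.4% in anterior and 36.8% to 53.9% in posterior libraries, and metal carriers 37.7% to 40% and 12.4% to 30.1%.

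As a share of all solute carrier FPKM, Slc25a5 was at 3.3%, 8.17% and 9.97% in anterior and 21%, 35.2% and 23.6% in posterior libraries. Slc39a1 was at 33.8%, 34.6% and 38.3% in anterior and 27.2%, 8.04% and 23.4% in posterior libraries. Glucose carriers held 15.3% to 15.9% in anterior and 11.7% to 13.7% in posterior libraries, and amino acid carriers 5.48% to 6.53% and 7.75% to 8.46%. Neither of these class shares overlapped between the domains. Shares of one total are tied to each other, so they show how the signal was divided and not which gene's level differed, and these shares carry no test. All solute carriers together made up 1.05%, 1.08% and 1.09% of the FPKM of the table in anterior and 0.845%, 0.811% and 0.984% in posterior libraries.

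The zinc importer Slc39a1 (ZIP1) was the most abundant solute carrier in mean level. Its levels were 10.39, 10.95 and 11.10 in anterior and 10.44, 8.43 and 10.45 in posterior libraries. Posterior B stood far below every other library, and anterior A lay just below posterior A and C. The difference was -1.04 ± 0.62 (limma, unadjusted p = 0.129, adjusted p = 0.665) and was between -1.58 and -0.30 over the alternatives. Slc39a1 lies at chr3:90248172-90253612 on the plus strand, and 1 annotated pseudogene bears its name.

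Slc39a7 (ZIP7), which releases zinc from the endoplasmic reticulum, was at 2.58, 5.93 and 3.65 in anterior and 5.73, 5.73 and 6.56 in posterior libraries. The groups overlapped through anterior B, and the difference was 1.95 ± 0.89 (limma, unadjusted p = 0.054, adjusted p = 0.617). Slc39a11 (ZIP11), a carrier of the Golgi and nucleus, was listed at 0 in anterior A, B and C, while posterior libraries had 2.32, 2.59 and 2.97. Its difference of 2.62 ± 0.88 had an unadjusted p of 0.015 and did not pass (limma, adjusted p = 0.561, 0.416 to 0.903 over the alternatives). Its locus, chr11:113244853-113650079 on the minus strand, overlaps the plus-strand genes Sstr2 and Cog1. Being at 0 in the 3 anterior and above 0 in the 3 posterior libraries was shared by 3 solute carriers (1.6%), namely Slc39a11, Slc38a3 and the peptide carrier Slc15a2, and by 179 of all genes (1.4%). The opposite pattern was found in 0 solute carriers and 10 genes of the table.

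Slc30a2 (ZnT2), which loads zinc into vesicles, was at 0.28, 0 and 0 in anterior and 1.32, 3.34 and 4.07 in posterior libraries. The groups did not overlap, and the difference of 2.81 ± 0.99 did not pass (limma, unadjusted p = 0.019, adjusted p = 0.57). Slc39a9 (ZIP9) was at 1.50, 1.49 and 0 in anterior and 3.19, 3.02 and 2.62 in posterior libraries, again separated (1.94 ± 0.96, limma, adjusted p = 0.626). Slc39a8 (ZIP8), an importer of zinc, manganese and iron, was at 0.41, 4.50 and 1.16 in anterior and 2.71, 4.38 and 4.52 in posterior libraries, with anterior B at the posterior level.

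Slc39a4 (ZIP4), the zinc importer of gut and visceral endoderm, was at 3.54, 3.09 and 2.49 in anterior and 3.66, 3.07 and 3.99 in posterior libraries. Slc30a1 (ZnT1), the plasma membrane zinc exporter, was at 3.81, 4.01 and 1.92 in anterior and 3.06, 3.53 and 3.72 in posterior libraries. Slc30a9 was higher in the anterior piece of each embryo, at 5.25, 4.25 and 2.28 against 3.42, 3.78 and 1.57, with groups that overlapped (-1.0 ± 0.91, limma, adjusted p = 0.759). Slc39a14 (ZIP14) reached at most 1.65 and was not tested. Of the 11 tested importers of the Slc39a family 8 were higher in posterior (median 0.66, and 0.06 after quantile normalization), and of the 8 Slc30a genes 4 (median -0.12).

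Over all 19 tested metal carriers, 12 were higher in posterior (63.2%, against 64.9% of all genes), with a median of 0.53, and of -0.15 after quantile normalization. The median was 0.34, 0.81 and 0.09 without ETX-embryo A, B and C, and 0.18 with anterior C alone left out and no block. Outside Slc39a1 the metal carriers summed to 177, 176 and 94.2 FPKM in anterior and 151, 184 and 187 FPKM in posterior libraries, which overlapped. Among genes of metal handling, 9 of 11 were higher in posterior (81.8%, against 64.9% of all genes). After quantile normalization 8 of 11 were, against 5233 of all 10914 genes fitted. The metal handling genes had a median of 0.87 and 0 at an unadjusted p under 0.05. Without ETX-embryo A this median was 0.22, and with no block it was 0.49 without anterior A and 0.50 without anterior C. The copper chaperone Atox1 was at 5.54, 6.66 and 6.31 in anterior and 7.99, 6.19 and 7.78 in posterior libraries, and the ferritin chain Fth1 at 9.39, 9.04 and 7.76 against 9.81, 9.31 and 9.70. Both overlapped between the domains.

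Carriers of the other 35 families had a median of 0.07 over 74 tested members, beside 0.43 over all genes fitted. Of these members 39 were higher in posterior (52.7%, against 64.9% of all genes) and 35 in anterior. After quantile normalization 23 and 51 were, against 5233 and 5681 of all genes. The median of these families was 0.83 on the log2(FPKM + 0.1) scale, 0.42 without ETX-embryo B and 0.36 without A. With no block it was 0.23 without anterior A and -0.14 without anterior C. The iron exporter Slc40a1 (ferroportin) was at 0, 2.95 and 4.76 in anterior and 2.39, 3.06 and 0.10 in posterior libraries, in opposite directions in A and C. Slc11a2 (DMT1), which imports ferrous iron, was at 0.22, 1.29 and 0 in anterior and 2.38, 2.78 and 2.74 in posterior libraries. Its groups did not overlap, and the difference of 2.13 ± 0.92 did not pass (limma, unadjusted p = 0.045, adjusted p = 0.617).

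Slc27a3, a fatty acid carrier and acyl-CoA synthetase, was at 0, 1.52 and 0 in anterior and 3.42, 2.26 and 5.06 in posterior libraries. It had the largest difference of the 154 solute carriers, 3.07 ± 1.11 (limma, unadjusted p = 0.021, adjusted p = 0.573). The nucleoside carrier Slc29a1 (ENT1) was at 0.48, 2.72 and 0 in anterior and 3.00, 4.13 and 3.08 in posterior libraries, also separated (2.34 ± 0.98, limma, unadjusted p = 0.04, adjusted p = 0.614). The taurine carrier Slc6a6, the most abundant gene of these families and chosen after its values were seen, was at 4.09, 5.53 and 4.60 in anterior and 5.65, 5.79 and 6.01 in posterior libraries (1.07 ± 0.74, limma, adjusted p = 0.69).

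In the anterior direction, the choline carrier Slc44a1 was at 4.83, 1.32 and 0.50 in anterior and 0.34, 0.17 and 0 in posterior libraries. The groups were separated, mostly through anterior A, and the difference of -2.05 ± 1.03 did not pass (limma, unadjusted p = 0.077, adjusted p = 0.633).

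Ratios between carriers of one library do not depend on a scaling factor common to that library. They are given in log2 of FPKM for pairs chosen after the values were seen, with no test. Slc25a5 over Slc25a3 was 0.26, 0.19 and 0.97 in anterior and 2.01, 3.52 and 3.83 in posterior libraries, with no overlap. Slc25a5 over its paralogue Slc25a4 was -0.64, 0.13 and 2.38 in anterior and 2.33, 2.49 and 2.17 in posterior libraries, where the library labelled anterior C fell among the posterior ones.

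Slc39a1 over Slc39a7 was 8.07, 5.04 and 7.56 in anterior and 4.73, 2.72 and 3.90 in posterior libraries, all anterior values being the higher. Slc7a5 over Slc7a6 was -3.15, -2.27 and -2.61 in anterior and 0.22, -1.29 and 1.45 in posterior libraries, with no overlap, though Slc7a5 was under 1 FPKM in anterior A and C. Slc3a2 exceeded Slc7a5 in every library, by 7.05, 3.14 and 7.45 in anterior and 3.62, 2.41 and 1.71 in posterior libraries, with anterior B among the posterior values. Slc2a1 over Slc2a3 stayed between -0.84 and 0.56, with overlapping groups.

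**Figure D4:**
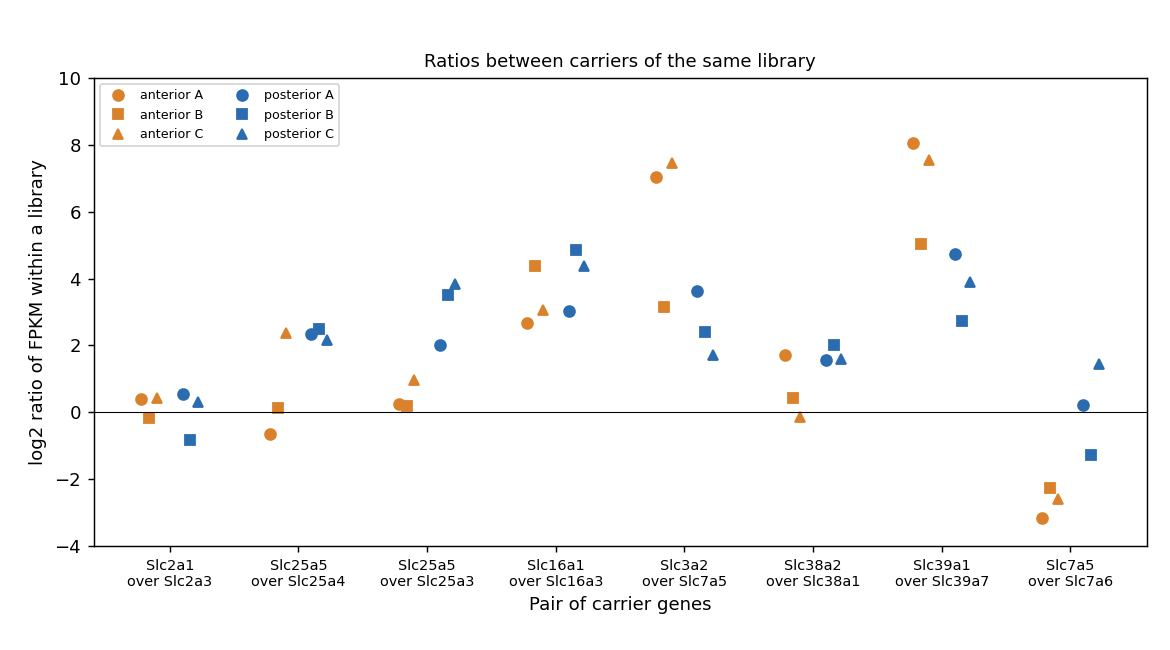
log2 ratio of FPKM between carriers of the same library (vertical axis) for 8 gene pairs chosen after the values were seen (horizontal axis), 1 point per library, orange anterior and blue posterior. Slc25a5 over Slc25a3 and Slc7a5 over Slc7a6 are higher in every posterior library, Slc39a1 over Slc39a7 in every anterior one, and Slc2a1 over Slc2a3 overlaps.

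Differences among the 3 ETX-embryos were tested in the same fit. By limma's F test 0 solute carriers passed an adjusted p of 0.05 (0% of all genes), and 3 of 154 (1.95%) had an unadjusted p under 0.05, against 2.77% of all genes. The copper importer Slc31a1 (CTR1) had the smallest p, at 5.0, 3.93 and 1.05 in anterior and 3.95, 4.44 and 1.44 in posterior libraries (unadjusted p = 0.034, adjusted p = 0.996). Both pieces of C were its lowest. Slc7a7 and Slc30a3 were the others (unadjusted p = 0.043 and 0.046), Slc7a7 with its lowest value of each domain in A, and Slc30a3 with its highest value of each domain in A, at 4.33, 0 and 0 in anterior and 1.94, 0.68 and 0 in posterior libraries.

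Next by p came Slc37a4, Slc5a6 and Slc25a43 (unadjusted p = 0.051, 0.051 and 0.056). Slc37a4, the glucose-6-phosphate carrier of the endoplasmic reticulum, was at 6.53, 4.22 and 0 in anterior and 1.57, 2.53 and 0.28 in posterior libraries, with its lowest value of each domain in C. Slc5a6, a sodium-coupled carrier of biotin and pantothenate, was highest in C, at 3.13 and 4.63 against at most 2.07 elsewhere. Slc25a43 was above 2 in both pieces of B and at 0.23 or below in the other 4 libraries.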

How the data were processed

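RNA was measured in 6 Smart-seq2 libraries made with 18 preamplification cycles, per the labels' protocols, which also name mapping to Ensembl version 38.77 and HTSeq-count. Cufflinks 2.0.2, TopHat2 2.0.4 and build mm10 are listed in the submitters' processing notes. The sources used here do not say which tool gave the values. Deposited were the authors' log2(FPKM + 1) values for 12826 genes in 1 table, which holds no gene that stays under 1 FPKM in all libraries (smallest maximum 1.003). The log2 base was read from the values: 99.1% to 99.5% of a library's entries above 3 turned into numbers of 6 or fewer significant digits as powers of 2 less 1. The planned test assumed FPKM, so the deposited log2 scale was used unchanged. Relative depth came from the steps that whole reads leave in low FPKM values (tolerance 0.01 in log2), with each library set against anterior A. For 3 of the 15 library pairs, the direct ratio differed by a doubling from that chained through anterior A.

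The 10914 genes averaging 1 FPKM or more were fitted with limma 3.58.1 in R 4.3.3 (domain plus embryo block, mean-variance trend, two-sided, Benjamini-Hochberg over all genes, threshold 0.05), with 2 residual and 7.5 prior degrees of freedom. The block was kept because both pieces come from 1 individual; deviations of paired pieces correlated at -0.07, 0.04 and -0.03 in A, B and C. The labels name 3 individual ETX-embryos, and each value is 1 library. A difference on the log2(FPKM + 1) scale understates the change of low genes, and a gene at exactly 0 is called listed at 0. The code was tested on simulated data.

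The genes, lists and alternatives were chosen with earlier results of these data known. Solute carriers named in the text are 19 core genes (Slc7a11 is not analysed here), up to 8 per direction with the smallest p among those moving the same way in all 3 embryos, the 2 most abundant of each main class and the 6 with the smallest F test p. One gene that the rule names is not reported here. Members beyond this rule (among them Slc2a8, Slc2a4, Slc2a2, Slc7a6, Slc7a14, Slc38a3, Slc15a2, Slc25a36, Slc25a39, Slc25a10, Slc25a32, Slc25a46 and Slc6a6) were chosen after their values were seen. Gene positions are from GENCODE vM21 (GRCm38/mm10), which matched 186 of 187 names, and promoters from RefSeq (GRCm38.p6). Alternatives changed the pseudocount (0.1), the filter (none, or 5 FPKM), the scaling, the trend, the block and the libraries used.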

Additional observations from a re-analysis of the deposited data

How the results depend on the processing

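In the 12 alternatives run, 0 solute carriers passed an adjusted p of 0.05 between the domains. Beside each count at an unadjusted p under 0.05 stands its share of the solute carriers tested and that of all genes. The count higher in posterior (7) was 2 with a mean of at least 5 FPKM (2.53%, all genes 7.31%), 3 after quantile normalization (1.95%, 4.7%), 4 after median subtraction (2.6%, 3.93%), 3 to 10 when 1 ETX-embryo was left out (1.95% to 6.49%, 3.19% to 8.23%), and 9 without anterior C and with no block (5.84%, 8.27%), an alternative added after the data were seen. The count higher in anterior (0) was 2 with no replicate block (1.3%, 1.09%), where the posterior count was 9 (5.84%, 8.36%), 1 with no filter (0.535%, 0.78%), 1 without the trend (0.649%, 0.925%), 5 after quantile normalization (3.25%, 2.89%), 5 after median subtraction (3.25%, 2.72%) and 1 to 3 with 1 ETX-embryo left out (0.649% to 1.95%, 0.33% to 1.28%). With no block it was 3 without anterior A (1.95%, 1.75%) and 5 without anterior C (3.25%, 2.13%). Among all genes the unadjusted calls were 790 in posterior and 86 in anterior, and 513 and 315 after quantile normalization. Medians moved by more than the spread between embryos under scaling: amino acid carriers to -0.21 (quantile) and -0.094 (median subtraction), metal carriers to -0.15 (quantile) and all solute carriers to -0.28 and -0.25. The median of the other families moved to -0.52 (quantile), -0.41 (median subtraction), 0.83 on the log2(FPKM + 0.1) scale and 0.42 without ETX-embryo B. Of 38 named members tested, 26 kept their sign in every alternative that fitted them, Slc25a5, Slc7a5, Slc39a1 and Slc39a11 among them. Up to 8 per direction, with Slc25a5, Slc7a5 and Slc39a11, had been picked for moving the same way in all 3 embryos. For these, leaving out 1 ETX-embryo could not turn the sign, so the count was partly fixed by the choice of genes. The absolute depth is unknown, so limits of detection cannot be given.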
